A study of Mus musculus with 12 samples.

Results

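The RNA levels of 10 genes are described here in mouse embryonic fibroblasts. They are the 3 genes of the GADD45 family (Gadd45a, Gadd45b, Gadd45g) and 7 known targets of the transcription factor p53 (Cdkn1a, Btg2, Ccng1, Plk2, Mdm2, Trp53inp1, Sesn1). The activity of p53 itself was not measured. All probe sets that the platform annotation ties to 1 of these symbols and to no other gene were taken, which gave 20 probe sets of the 22626 tested and 10 genes of 12393. No measured value entered the choice of probe sets, but the genes were named with earlier results of these data known. The cells were primary fibroblasts of HtrA2 KO and WT mice, used at passage 4 and exposed for 4 h to vehicle or to 1 µM rotenone, which blocks complex I of the respiratory chain and also hinders microtubule growth. HtrA2, also called Omi, is a protease that resides between the mitochondrial membranes. The 12 Affymetrix arrays form 4 groups of 3, namely KO with rotenone, KO with vehicle, WT with rotenone and WT with vehicle. The labels do not say which part of Htra2 was deleted, or whether replicates were separate cultures or embryos, so p-values measure the spread between these arrays, which may be technical.

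In unstressed cells p53 is kept low by Mdm2, a ubiquitin ligase that p53 itself induces. Damage to DNA and several other stresses free p53, which then raises genes that halt the cell cycle, such as Cdkn1a, and genes of repair, metabolism and cell death. The GADD45 proteins are small stress sensors that bind PCNA, the CDK1 complex and the kinase MTK1 (also known as MEKK4). Gadd45a is known both as a p53 target and as a gene raised independently of p53 through ATF4 and other factors, whereas Gadd45b and Gadd45g are known mainly for induction by cytokines and growth factors. Cultured mouse embryonic fibroblasts build up p53 activity with passage, partly through the Arf product of Cdkn2a, which inhibits Mdm2.

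The promoters of 4 members are shown, because Gadd45a and Plk2 were the members called for rotenone, and Btg2 and Cdkn1a are arrest genes that were called by replicate number. Each window holds 250 bases before and 50 after a RefSeq transcription start (GRCm38.p6), 5′ to 3′ on the gene's strand. Capitals mark a match, on either strand, to the p53 half-site consensus or to TGACGTCA, the full cAMP response element that ATF and CREB factors are known to bind.
Gadd45a, chr6:67037358-67037657, minus strand: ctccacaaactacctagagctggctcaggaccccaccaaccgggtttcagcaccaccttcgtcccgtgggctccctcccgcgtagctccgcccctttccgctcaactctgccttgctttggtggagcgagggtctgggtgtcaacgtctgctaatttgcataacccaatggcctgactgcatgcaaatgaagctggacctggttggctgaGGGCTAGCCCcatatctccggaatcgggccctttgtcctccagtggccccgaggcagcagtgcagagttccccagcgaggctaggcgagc
Plk2, chr13:110394794-110395093, plus strand: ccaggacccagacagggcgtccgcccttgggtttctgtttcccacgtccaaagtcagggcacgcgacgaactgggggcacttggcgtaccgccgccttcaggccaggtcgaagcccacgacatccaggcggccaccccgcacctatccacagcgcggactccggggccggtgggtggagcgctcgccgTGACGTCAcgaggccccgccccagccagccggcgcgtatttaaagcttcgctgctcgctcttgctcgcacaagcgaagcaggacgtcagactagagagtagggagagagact
Btg2, chr1:134079106-134079405, minus strand: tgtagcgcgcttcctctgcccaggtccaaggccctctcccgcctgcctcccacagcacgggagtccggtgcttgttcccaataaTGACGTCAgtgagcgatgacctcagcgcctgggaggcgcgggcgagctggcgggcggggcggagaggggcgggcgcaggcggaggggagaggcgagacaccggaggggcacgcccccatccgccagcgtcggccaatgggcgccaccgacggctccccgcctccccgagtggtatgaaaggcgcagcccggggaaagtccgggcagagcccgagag
Cdkn1a, chr17:29090729-29091028, plus strand: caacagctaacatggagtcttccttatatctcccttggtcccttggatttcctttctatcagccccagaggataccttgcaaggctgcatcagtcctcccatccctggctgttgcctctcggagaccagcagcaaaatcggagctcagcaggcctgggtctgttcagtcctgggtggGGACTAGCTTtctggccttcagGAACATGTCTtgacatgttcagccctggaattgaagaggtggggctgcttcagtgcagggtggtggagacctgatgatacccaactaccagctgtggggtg

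The Gadd45a match begins at -40 from the start, and the Cdkn1a matches begin at -73 and -51 from the more upstream of its annotated starts. In the other Cdkn1a window there is no half-site in these letters. TGACGTCA begins at -62 in Plk2 and at -166 in Btg2. Windows were found for 9 of the 10 genes, all but Trp53inp1, and there were 11 windows in all. The half-site consensus was in 5 of the 11, in Gadd45a, Cdkn1a, Mdm2, Ccng1 and Sesn1, against 8.36% of 32851 RefSeq windows, and TGACGTCA was in 2 of the 11 against 1.79%. Searched on both strands as well were CATG, which can lie inside a half-site and was in 3 of the 11 (61.1% of all windows), TATAAA in Gadd45b and Gadd45g (13.6%), and TGATGNAA, the core of the C/EBP-ATF element, in Gadd45g (3.97%). A match describes letters in these windows and not a bound site.

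Values are RMA signals on the log2 scale, and array medians lay between 7.53 and 7.58. Each gene is given by its brightest probe set, the one with the highest mean over the 12 arrays. The brighter Htra2 probe set stood at 7.66, 7.82 and 7.81 in KO rotenone and 7.57, 7.57 and 7.87 in KO vehicle cells, against 9.09, 9.02 and 9.14 in WT rotenone and 9.04, 8.83 and 9.32 in WT vehicle cells. The genotype entry of the 3 WT rotenone arrays reads knockout, while their titles and descriptions read wild type, and their Htra2 level was that of WT cells. KO minus WT was -1.39 in vehicle and -1.32 in rotenone (limma adjusted p = 0.00320 and 0.00577 without a block). A dimmer Htra2 probe set did not pass (0.40 in vehicle, 0.23 in rotenone). All 12 fibroblast markers lay above the 40th percentile of probe sets (7.01), from Pdgfra at 8.25 to Vim at 13.99. In every group the array numbered 3 stood apart from those numbered 1 and 2, and the labels do not say what a number stands for. Pairs below are matched by number alone, and the values cannot show that 1 pairs with 1 and 2 with 2. Differences were therefore tested with limma in a fit of the 4 group means and again with the replicate number as a block, with p adjusted over all probe sets and a threshold of 0.05.

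Gadd45a, which codes for a stress sensor of the GADD45 family, was higher with rotenone in both genotypes. Its signal was 9.31, 9.09 and 7.12 in KO rotenone cells for replicates 1, 2 and 3, against 7.27, 7.26 and 6.38 in KO vehicle cells. In WT cells it was 9.65, 9.55 and 6.95 with rotenone, against 7.67, 7.18 and 6.54 with vehicle. The groups overlapped within each genotype, because the rotenone array numbered 3 lay below vehicle arrays numbered 1 and 2, yet rotenone was higher in 6 of 6 same-numbered pairs. Over both genotypes Gadd45a was 2.94-fold higher with rotenone (log2 difference 1.56, SE 0.20 and limma adjusted p = 0.000656 in the blocked fit, SE 0.50 and adjusted p = 0.393 in the fit without a block). In KO cells the difference was 1.53 (95% interval 0.92 to 2.14, adjusted p = 0.0355 with the block and 1.0 without). In WT cells it was 1.58 (0.97 to 2.19, adjusted p = 0.0206 with the block and 1.0 without). The KO call with the block was lost without any 1 of the vehicle arrays numbered 1 or 2 or the KO rotenone arrays numbered 1 or 2 (adjusted p from 0.0647 to 0.325). The WT call was lost without any 1 of the WT arrays numbered 1 or 2 (adjusted p from 0.0848 to 0.224). In bulk RNA, fewer cells of a type and less RNA per cell cannot be told apart.

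The size of the difference varied with the replicate number. In the pairs numbered 1 and 2 the difference was 2.03 and 1.83 in KO and 1.97 and 2.37 in WT cells, and in the pairs numbered 3 it was 0.73 and 0.41. A term for rotenone on arrays numbered 3, added after the values were seen, put the Gadd45a effect there 1.48 lower than on the others (SE 0.19, limma adjusted p = 0.0248). Gadd45a was the 1 probe set that passed for that term, 0.00442% of those tested. Without the arrays numbered 3 the mean rotenone effect was 2.05 and passed without a block as well (adjusted p = 9.7e-08). With the block but without replicate 1 it was 1.33 (adjusted p = 0.0799), and without replicate 2 it was 1.29 (adjusted p = 0.130), so leaving out either number ended the call.

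**Figure D1:**
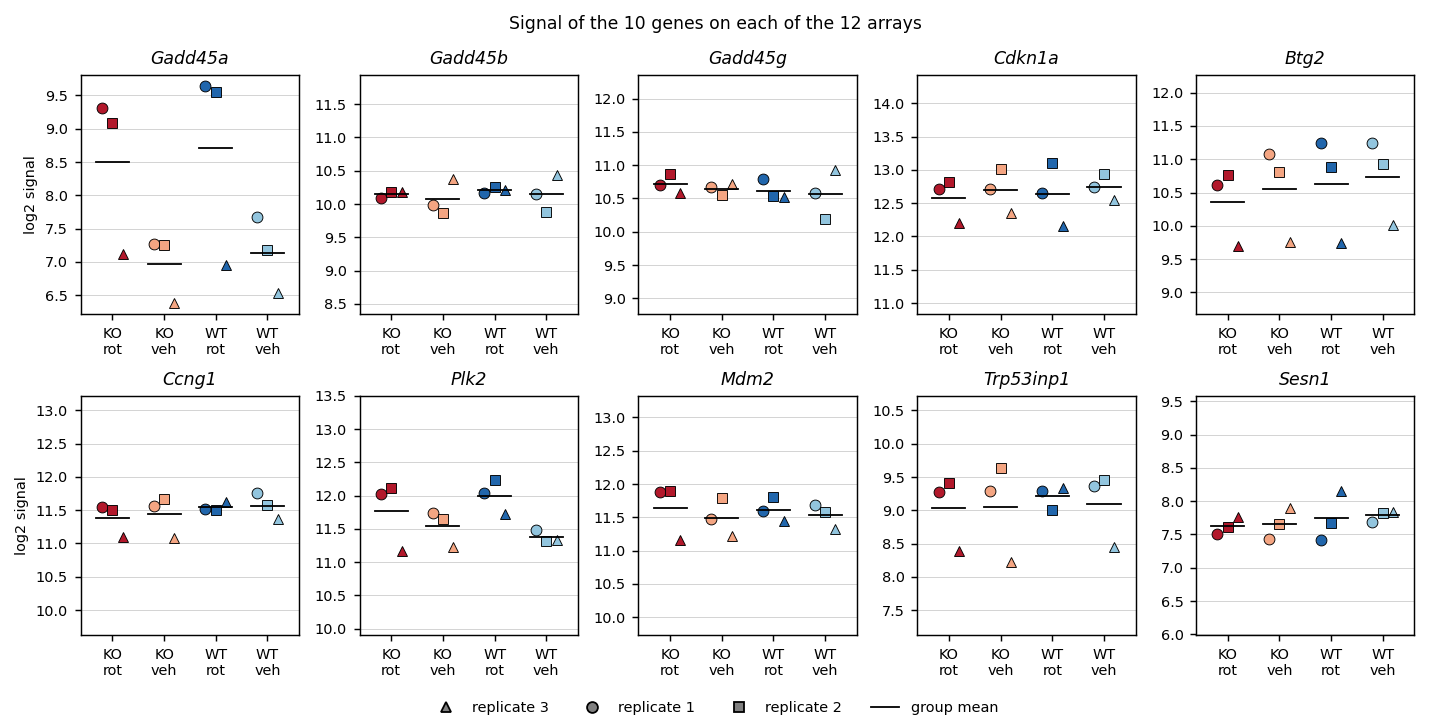
Log2 signal of the brightest probe set of each gene (vertical axis, the same span in every panel) on the 12 arrays, by group, with the marker shape giving the replicate number and the line the mean of 3 arrays. Gadd45a rotenone arrays numbered 1 and 2 lie between 9.09 and 9.65, above all other arrays. The triangle of replicate 3 is lowest in all 4 groups for Gadd45a, Cdkn1a, Mdm2 and Btg2, and in 3 of 4 for Ccng1, Plk2 and Trp53inp1. For Sesn1 it is highest in all 4.

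For the other GADD45 genes no difference was detected. Gadd45b, a family member known to follow TGF-beta and NF-kB signalling, stood at 10.09, 10.17 and 10.18 in KO rotenone cells against 9.99, 9.86 and 10.38 in KO vehicle cells. In WT cells it was 10.17, 10.26 and 10.21 with rotenone and 10.15, 9.89 and 10.43 with vehicle. The 3 rotenone arrays lay inside the range of the vehicle arrays in each genotype, and the mean difference was 0.07 (95% interval -0.11 to 0.24 with the block). Rotenone was higher in 4 of 6 pairs, those numbered 1 and 2, and lower in both pairs numbered 3. The further Gadd45b probe sets overlapped between treatments too. Gadd45g, known as a cytokine-induced member, averaged 10.72 ± 0.14 in KO rotenone and 10.65 ± 0.09 in KO vehicle cells, and 10.62 ± 0.15 in WT rotenone and 10.57 ± 0.36 in WT vehicle cells (SD, n = 3). Its difference was 0.06 (-0.16 to 0.27), again higher in the pairs numbered 1 and 2 and lower in those numbered 3.

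Of the 10 genes, 0 passed for rotenone without the block and 2 passed with it, Gadd45a and Plk2. Of all probe sets tested, 0.217% passed without the block and 2.46% with it. At an unadjusted p under 0.05 the same 2 genes stood out in either fit. Plk2 codes for a polo-like kinase of centriole duplication that p53 is known to induce. In KO cells its signal was 12.02, 12.12 and 11.17 with rotenone against 11.75, 11.65 and 11.23 with vehicle. In WT cells it was 12.03, 12.24 and 11.72 with rotenone against 11.49, 11.32 and 11.33 with vehicle. All WT rotenone arrays lay above all WT vehicle arrays, while in KO cells the groups overlapped and the pair numbered 3 went the other way.

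Over both genotypes Plk2 was 1.34-fold higher with rotenone (0.42, SE 0.098 and limma adjusted p = 0.0340 in the blocked fit and 0.531 in the other). Within a genotype it did not pass, at 0.23 in KO (-0.07 to 0.52) and 0.62 in WT cells (0.32 to 0.91, adjusted p = 0.0667 with the block). The difference between these effects, KO minus WT, was -0.39 (-0.81 to 0.03). The call with the block was lost on leaving out any of 8 single arrays: all 4 vehicle arrays numbered 1 or 2, WT rotenone replicate 2, KO rotenone replicates 1 or 2, and KO vehicle replicate 3 (adjusted p from 0.0625 to 0.137).

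Of the cell type markers, 1 of 6 neural and 1 of 12 fibroblast genes passed for rotenone with the block. Of all probe sets 2.46% passed with the block and 0.217% without it. The part of these 2 markers in the Gadd45a and Plk2 values was not tested. Of 6 neural markers 1 was lower in both fits, Tubb3, the gene of a neuronal beta-tubulin (-1.37, limma adjusted p = 0.0331 without the block and 1.5e-05 with it). It stood at 6.34, 6.91 and 7.27 in KO rotenone cells against 7.95, 8.01 and 8.63 in KO vehicle cells, and at 6.71, 6.51 and 6.86 in WT rotenone cells against 7.82, 7.63 and 8.78 in WT vehicle cells, with no overlap. The other 5 neural markers did not pass, 3 of the 6 lay above 7.01, and the list ranged from Snap25 at 3.89 to Nes at 10.41. The log2 of the summed neural markers ran from 10.81 to 11.05 in KO rotenone, 10.96 to 11.29 in KO vehicle, 10.74 to 11.01 in WT rotenone and 10.95 to 11.14 in WT vehicle cells. Of 12 fibroblast markers 1 was lower with the block and 0 without it, Pdgfra, a growth factor receptor gene (-0.62, adjusted p = 0.0315 with the block), and its groups overlapped in both genotypes. The log2 of the summed fibroblast markers ran from 16.24 to 16.53 in KO rotenone, 16.24 to 16.53 in KO vehicle, 16.32 to 16.47 in WT rotenone and 16.19 to 16.47 in WT vehicle cells. In the leukocyte, epithelial, endothelial and muscle lists 0 markers passed for the mean rotenone effect in either fit (limma), and before adjustment 1 endothelial and 1 epithelial marker were under 0.05 in each fit.

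For the growth arrest genes no difference with rotenone passed. Cdkn1a codes for p21, the inhibitor of cyclin-dependent kinases through which p53 halts the cell cycle. It stood at 12.71, 12.82 and 12.20 in KO rotenone cells against 12.72, 13.02 and 12.35 in KO vehicle cells, and at 12.65, 13.10 and 12.16 in WT rotenone cells against 12.74, 12.94 and 12.54 in WT vehicle cells. Rotenone was lower in 5 of 6 pairs, and the mean difference was -0.11 (95% interval -0.27 to 0.04 with the block). Btg2, an antiproliferative partner of the CCR4-NOT deadenylase, stood at 10.61, 10.76 and 9.69 in KO rotenone cells against 11.08, 10.81 and 9.76 in KO vehicle cells. In WT cells it was 11.24, 10.89 and 9.74 with rotenone against 11.25, 10.92 and 10.02 with vehicle. All 6 pairs were lower with rotenone, with differences from -0.47 to -0.01, and the mean of -0.15 did not pass (-0.32 to 0.01, adjusted p = 0.389 with the block). That count rests on the matching by number, because WT rotenone replicate 1 (11.24) lay above WT vehicle replicate 2 (10.92). The second Btg2 probe set was higher in 4 of 6 pairs. Ccng1, the gene of cyclin G1, a p53 target that recruits a phosphatase to Mdm2, differed by -0.04 (-0.22 to 0.15). It stood at 11.55, 11.51 and 11.10 in KO rotenone cells against 11.57, 11.67 and 11.08 in KO vehicle cells, and at 11.51, 11.51 and 11.62 in WT rotenone cells against 11.77, 11.58 and 11.37 in WT vehicle cells.

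The feedback and stress members also overlapped between treatments. Mdm2 stood at 11.88, 11.90 and 11.16 in KO rotenone cells against 11.47, 11.79 and 11.22 in KO vehicle cells, and at 11.60, 11.80 and 11.44 in WT rotenone cells against 11.68, 11.58 and 11.33 in WT vehicle cells. Its difference was 0.12 (-0.05 to 0.29), and that of its second probe set, 0.17, did not pass either. Trp53inp1, a nuclear stress protein that acts with p53 and in autophagy, differed by 0.05 (-0.28 to 0.38). Its WT rotenone array numbered 3 stood at 9.34, well above the other arrays of that number (8.39, 8.22 and 8.46). The second Trp53inp1 probe set did not show this, at 7.22 against 7.03, 7.24 and 7.00. That probe set differed by -0.20 with rotenone, was higher in 1 of 6 pairs and did not pass. Sesn1, a sestrin that restrains mTORC1, differed by -0.03 (-0.20 to 0.13). It averaged 7.63 ± 0.13 in KO rotenone and 7.66 ± 0.23 in KO vehicle cells, and 7.75 ± 0.37 in WT rotenone and 7.79 ± 0.09 in WT vehicle cells (SD, n = 3), and its further probe sets were dim, between 3.92 and 4.76. For rotenone within one genotype, Gadd45a was the 1 member of 10 to pass with the block in KO and again in WT cells, against 0.301% and 0.628% of all probe sets. Without the block 0 members passed in either genotype, against 0.00884% in KO and 0.0133% in WT cells, with 0 and 2 members at an unadjusted p under 0.05.

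**Figure D2:**
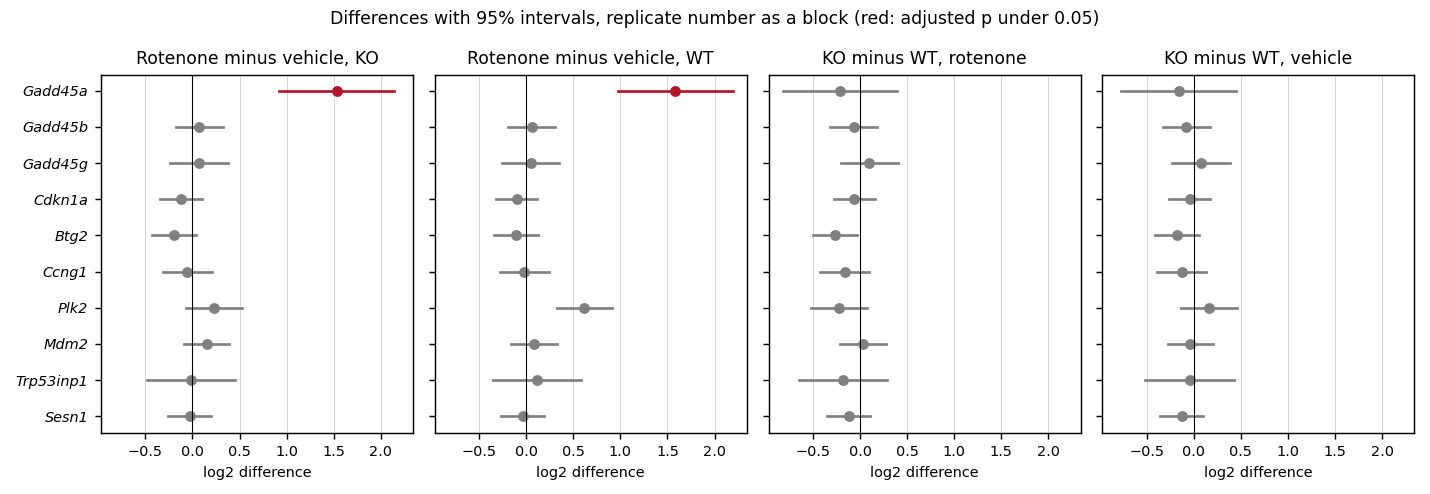
Log2 differences (points) with 95% intervals (lines) from the limma fit that is blocked on replicate number, for rotenone minus vehicle in KO and WT cells and for KO minus WT in rotenone and vehicle. In the rotenone panels Gadd45a stands at 1.53 and 1.58, and in the genotype panels the estimates lie between -0.26 and 0.16.

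Between HtrA2 KO and WT cells no difference in these genes was detected. In KO against WT cells 0 of 10 genes passed in rotenone and 0 of 10 in vehicle, with or without the block (limma). Of all probe sets, 0.00442% passed in each of these comparisons without the block, and 0.0398% in rotenone and 0.0177% in vehicle with it. Btg2 in rotenone was the 1 member under 0.05 before adjustment with the block (-0.26, 95% interval -0.50 to -0.03, adjusted p = 0.347), and without the block 0 were. By their brightest probe sets Btg2 and Gadd45b were lower in KO cells in every same-numbered pair, and the other 8 genes lay on both sides of 0. A further Gadd45b probe set did not overlap between genotypes in rotenone (-0.20) but did not pass. Another of Gadd45b and the second of Btg2 had pairs on both sides of 0. Estimates ran from -0.26 (Btg2) to 0.10 (Gadd45g) in rotenone and from -0.18 (Btg2) to 0.16 (Plk2) in vehicle cells. Their median was -0.14 in rotenone and -0.06 in vehicle, against 0.02 and 0.01 over all genes, and 8 of 10 were below 0 in each. With the block, intervals for the 8 genes other than Gadd45a and Plk2 stayed between -0.65 and 0.42, which allows differences of that size. For Gadd45a they reached from -0.82 to 0.40 in rotenone and from -0.77 to 0.45 in vehicle. In the test of whether rotenone acts differently by genotype, 0 of 10 members passed in either fit, as did 0.0% of all probe sets, and 0 members were under 0.05 before adjustment. For Gadd45a that interaction was -0.05 (-0.91 to 0.81).

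**Figure D3:**
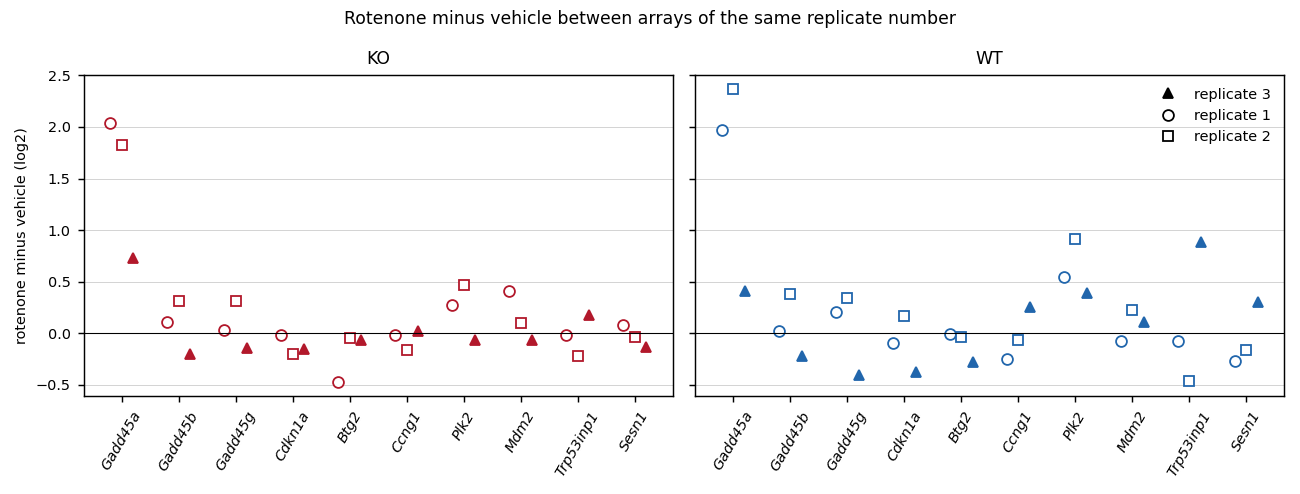
Rotenone minus vehicle (log2) between the arrays of the same replicate number, in KO (left) and WT cells (right), with filled triangles for replicate 3. Gadd45a is above 0 in all 6 pairs, at 0.73 and 0.41 for number 3 and at 1.83 to 2.37 for the others. Plk2 is above 0 in 5 of 6 pairs, Btg2 is below 0 in all 6, and the other 7 genes lie on both sides of 0.

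More of these genes were called by replicate number than by genotype or treatment. In the arrays numbered 3, compared with the mean of those numbered 1 and 2 over all groups, 7 of 10 genes were lower, 1 was higher and 2 did not pass. Of all probe sets, 11.3% were lower, 12.6% higher and 23.9% either, so calls were common, but the members' median was -0.44 against -0.04 over all genes. That the number sets arrays apart was known from earlier results of these data, so these values describe the members and are no independent evidence of the split. Of the 20 probe sets, 11 were lower and 2 higher.

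Gadd45a was lowest in replicate 3 in all 4 groups (-1.62, SE 0.21, limma adjusted p = 6.2e-05), and its arrays numbered 3 lay between 6.38 and 7.12 against 7.18 to 9.65 for the others. Btg2 was 2.21-fold lower there (-1.14, SE 0.083, adjusted p = 1.9e-07), at 9.69 to 10.02 against 10.61 to 11.25. Neither gene's arrays numbered 3 overlapped the rest. Cdkn1a was lower too (-0.52, adjusted p = 0.000177), as was its second probe set (-1.03), and neither overlapped. Both probe sets of Mdm2 were lower (-0.42 and -0.68), as were both of Trp53inp1 (-0.74 and -0.57). Plk2 (-0.46) and Ccng1 (-0.29) were lower as well. Ccng1 was lower in 3 of 4 groups and highest of its group in WT rotenone replicate 3, at 11.62, and its call was lost on leaving out any 1 of the 6 KO arrays or WT vehicle replicate 1 or 3 (adjusted p up to 0.181). Its further probe sets did not pass. Sesn1 was the member that was higher (0.31, adjusted p = 0.0110), and it was highest in replicate 3 in all 4 groups. Its call was lost without WT rotenone replicate 3 (0.21, adjusted p = 0.0556). Gadd45b (0.23, adjusted p = 0.0781) and Gadd45g (0.08) did not pass. Between replicates 2 and 1, 0 of 10 members passed (limma, 0.256% of all probe sets), and Cdkn1a alone was under 0.05 before adjustment (0.27).

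**Figure D4:**
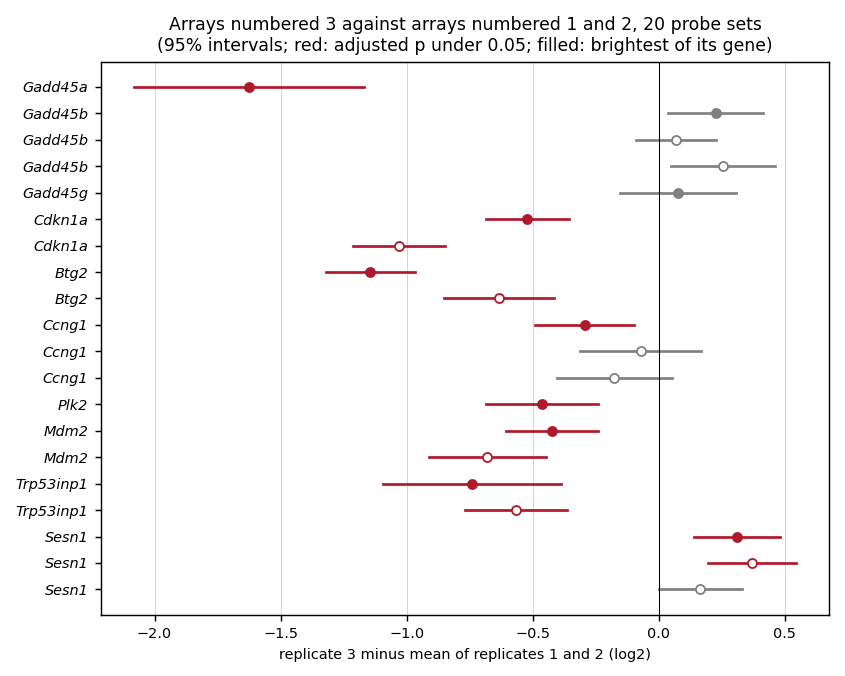
Arrays numbered 3 minus the mean of those numbered 1 and 2 (log2, horizontal axis) with 95% intervals, for all 20 probe sets of the 10 genes, filled for the brightest probe set of a gene and red where the limma adjusted p is under 0.05. Gadd45a at -1.62 and Btg2 at -1.14 lie farthest left, and Sesn1 at 0.31 lies on the other side of 0.

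Markers of other kinds moved with the replicate number, and their part in the members' values was not tested. All 16 genes of a list of mitotic genes were higher in the arrays numbered 3, with a median of 1.28. By array, the median level of that list was 9.40 to 9.62 for number 3 against 7.91 to 8.56 for the others. Of 15 measured genes of p53 and its regulators 6 were higher, 8 did not pass and 1 was lower. The lower gene was Cdkn2a, which codes for the p16 and Arf proteins (-2.12, limma adjusted p = 1.7e-08). It stood at 6.44 to 7.25 in the arrays numbered 3 and at 8.69 to 9.14 in the others, and was named after its values were seen. Of 7 measured leukocyte markers 5 were higher in replicate 3, led by the lysozyme gene Lyz2 (2.26), also named after its values were seen, and 4 of the 7 lay above 7.01. The log2 of the summed leukocyte markers ran from 10.09 to 10.79 in KO rotenone, 10.04 to 10.82 in KO vehicle, 10.05 to 10.80 in WT rotenone and 9.93 to 10.71 in WT vehicle cells. Each of these ranges mixes arrays numbered 3 with those numbered 1 and 2, so it does not show the split by number. In the arrays numbered 3, 2 of 6 epithelial, 1 of 5 muscle, 1 of 6 neural and 0 of 5 endothelial markers were higher. Of the neural markers 1 was lower, and of 12 fibroblast markers 2 were higher and 4 lower. These counts are to be read beside the 12.6% of all probe sets that were higher and the 11.3% that were lower there. Ptprc, the defining pan-leukocyte marker, stayed dim at 5.05 to 5.40 on all arrays.

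In the lists of the wider p53 pathway, calls for rotenone are to be read beside the 2.46% of all probe sets called with the block and the 0.217% without it. Of 13 measured p53 targets of cell death, 2 were higher with the block and 0 lower, and without it 0 of 13 passed. They were Pmaip1, the gene of the BH3-only protein Noxa (0.63, adjusted p = 0.0129), and Bid, another BH3-only gene (0.39, adjusted p = 0.0113). The list's median of 0.005 stood against 0.03 over all genes. Of 24 measured targets of arrest, repair and metabolism 1 was higher, Ddit4, an inhibitor of mTORC1 that is also known as an ATF4 and hypoxia target. It stood at 10.97, 10.92 and 10.66 in KO rotenone cells against 10.33, 10.28 and 10.23 in KO vehicle cells, and at 10.92, 11.09 and 10.66 in WT rotenone cells against 10.54, 10.43 and 10.26 in WT vehicle cells. Its groups did not overlap, and it passed in both fits (0.52, adjusted p = 0.0415 without the block and 0.000568 with it). Of 15 measured genes of p53 and its regulators, the deacetylase gene Sirt1 was higher (0.52) and Ing1, a chromatin reader, lower (-0.26) with the block, and 13 did not pass. Without the block 0 of the 15 passed. In the arrays numbered 3, 12.6% of all probe sets were higher and 11.3% lower, and the list counts are to be read beside that. The higher and lower genes there numbered 3 and 2 of the 13 cell death targets, and 4 and 8 of the 24 of arrest, repair and metabolism. They numbered 6 and 1 of the 15 regulators, 4 and 0 of 11 partners of GADD45 proteins, and 2 and 7 of 17 factors that drive GADD45 genes.

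Among 17 measured factors known to drive GADD45 genes, 3 were higher and 1 lower with the block, and 0 were higher and 1 lower without it. The higher ones were Ddit3, the gene of CHOP (0.92), Atf3 (0.68) and Atf4, the translation-controlled leader of the integrated stress response (0.40). Jun, of the AP-1 complex, was lower in both fits (-0.64, limma adjusted p = 0.0115 without the block). Ddit3 stood at 11.59, 11.59 and 9.47 in KO rotenone cells against 10.50, 10.49 and 8.95 in KO vehicle cells, and 11.70, 11.95 and 9.40 in WT rotenone cells against 10.53, 10.48 and 9.22 in WT vehicle cells, so its rotenone arrays numbered 3 lay below every vehicle array numbered 1 or 2, as for Gadd45a. Of 11 measured partners of GADD45 proteins 0 passed for rotenone, and of 16 mitotic genes 0 passed (limma, either fit). Before adjustment 1 partner and 4 mitotic genes were under 0.05 with the block, and 0 and 0 without it. Of the 149 measured genes of all lists, cell type markers and paralogs included, 0 passed for KO against WT in either fit (limma). Before adjustment 26 of them in rotenone and 11 in vehicle were under 0.05 with the block, and 7 and 2 without it. Those in rotenone with the block included 7 of 16 mitotic genes, 6 of 15 genes of p53 and its regulators and 5 of 24 targets of arrest, repair and metabolism. Those in vehicle included 3 of 16, 1 of 15 and 3 of 24. The share of all probe sets under 0.05 before adjustment is not given here, so these counts have no background beside them. All 16 mitotic genes were below 0 for KO minus WT, with a median of -0.28 in rotenone and -0.27 in vehicle, while 54.4% and 54.2% of all genes were above 0. Their part in the members' negative medians was not tested.

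Paralogs of the members moved in both directions. With rotenone and the block, Plk3, a stress-responsive polo-like kinase, was higher (0.39, limma adjusted p = 0.0215) and Plk1, the mitotic kinase of the family, lower (-0.48, adjusted p = 0.0403), and 11 of 13 did not pass. Without the block 0 of 13 passed. Of all probe sets 2.46% passed for rotenone with the block and 0.217% without it. The 11 were Plk4 (0.24), Mdm4 (0.22), Sesn2 (0.20), Tob2 (0.15), Btg1 (-0.02), Ccng2 (-0.03), Trp53inp2 (-0.04), Sesn3 (-0.06), Cdkn1b (-0.15), Cdkn1c (-0.21) and Tob1 (-0.36). In the arrays numbered 3, Sesn2 (-0.53), Plk3 (-0.50) and Sesn3 (-0.47) were lower. Plk1 (1.51), Plk4 (1.27), Tob1 (0.77), Ccng2 (0.38) and Cdkn1b (0.29) were higher there, and the other 5 did not pass. Of all probe sets 12.6% were higher and 11.3% lower in those arrays.

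Over the 12 arrays correlations between the members' levels are given as a description, since the arrays share groups and replicate numbers. Trp53inp1 and Ccng1 correlated at r = 0.91, Plk2 and Gadd45a at 0.88, and Btg2 and Cdkn1a at 0.79, whereas Sesn1 ran against Btg2 (-0.73) and Gadd45b against Trp53inp1 (-0.75). The genes most like Gadd45a were Chac1, a glutathione-degrading enzyme (r = 0.98), Rab21, a small GTPase (0.97), Cth, cystathionine gamma-lyase (0.97), Atf4 (0.97) and Fgf21, a hormone of the fibroblast growth factor family (0.97). With rotenone and the block, Chac1 (0.92), Cth (0.46), Atf4 and Fgf21 (0.52) were higher, and Rab21 (0.20) did not pass. All 5 were lower in the arrays numbered 3 (-1.09 to -0.21). Since these genes were chosen for following Gadd45a over the same arrays, such differences are largely fixed by the choice and are no further evidence. The genes most like Cdkn1a were Niban2 (r = 0.95), Ccdc137 (0.94), Fhl3 (0.94), P2rx5 (0.93) and Dnm1 (0.93). Chosen in the same way, all 5 were lower in the arrays numbered 3 (-0.41 to -0.19), and none passed for rotenone, where they lay between -0.07 and -0.03.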

How the data were processed

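Total RNA of 12 samples was measured on Affymetrix arrays. The authors deposited log2 values made with RMA, per the submitters' processing notes, of a version not given in the sources used here. Of 22690 rows, 64 array controls were left out, and 22626 probe sets were tested as deposited. The platform annotation gave 20380 of them 1 symbol, 691 several and 1555 none. A gene is represented by its brightest probe set, and probe sets under the 40th percentile count as dim (18 of the members' 20 are not). The number of arrays limits the precision.

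The 4 group means were fitted over the 12 arrays with limma 3.58.1 (R 4.3.3), with Benjamini-Hochberg adjustment over all 22626 probe sets, and tables and figures were made in Python 3.11.15 (numpy 2.4.6, pandas 2.3.3, matplotlib 3.10.9). A second fit was blocked on replicate number. The labels give no meaning to the numbers. They were taken to pair the arrays because deviations from the group means correlated above 0.1 in all 18 same-numbered pairs (r from 0.289 to 0.829), so the blocked value stands beside a result where it changes the call. Among numbers 1 and 2 alone, same-numbered pairs reached 0.289 to 0.554 and pairs of 1 with 2 reached -0.053 to 0.476. The group means include number 3, which stands apart, so arrays numbered 1 and 2 tend to deviate alike. These ranges overlap, so the limit of 0.1 sets number 3 apart but cannot show that 1 pairs with 1 and 2 with 2. For 11 of 12 arrays the best-correlated array of another group had the same number.

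On simulated data for the mean rotenone effect, 95% of 100 probe sets changed by 1 log2 unit were recovered, and 99% of 100 changed by 2. There were 10 false calls among the unchanged probe sets. The simulated arrays had independent noise and no shift by replicate number, and only the fit without a block was run on them. These shares therefore check the fit and do not give its power on the real arrays. Promoter windows come from RefSeq. The members, gene lists and tests were chosen with earlier results of these data known. Named were all members, list genes that passed for the mean rotenone effect or for genotype, all paralogs, the 5 genes most correlated with Gadd45a and with Cdkn1a, Htra2, and the lowest and highest cell type markers.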

Additional observations from a re-analysis of the deposited data

Results flagged for a closer look

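The rotenone effect on Gadd45a differed between arrays of different replicate number. Both genotypes together, it was 1.48 lower on the arrays numbered 3 than on those numbered 1 and 2, a difference of -1.48 (SE 0.19, 95% interval -1.88 to -1.08, limma adjusted p = 0.0248 for that term). The term was added after the values were seen. Rotenone minus vehicle was 0.73 in KO and 0.41 in WT cells for number 3, against 1.83 to 2.37 for the others. The signal on the arrays numbered 3 was low, from 6.38 to 7.12, and its part in the smaller difference was not tested. The other 9 members did not pass for this term. Before adjustment 4 of the 10 genes were under 0.05, namely Gadd45a, Gadd45b (-0.42), Gadd45g (-0.50) and, in the other direction, Trp53inp1 (0.72).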

How the results depend on the processing

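The replicate block decided the rotenone calls. With it 2 members passed for the mean effect, 1 in KO and 1 in WT cells, against 0, 0 and 0 without it. Of all probe sets it called 557 for the mean effect against 49. Without replicate 3 the counts of members were 2, 1 and 2, with or without the block. With the block and 1 array or 1 replicate number left out, an alternative of which the single arrays were chosen after seeing the data, the counts ran from 0 to 2 for the mean effect, 0 to 1 in KO and 0 to 2 in WT cells. Without the block but with arrays left out they ran from 0 to 2, 0 to 1 and 0 to 2. For KO against WT and for the interaction the block changed no call. Quantile normalization, median centring, leaving out dim probe sets, an intensity trend in the variance and fitting only the groups compared changed no sign of a member for rotenone or genotype, and none of them brought a member past the threshold there. Ccng1 did not pass by replicate number with the mean of its probe sets (-0.18). Gadd45b passed there without WT rotenone replicate 2 or 3 (up to 0.30).

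Of 1520 alternative values, 122 changed sign with 1 array left out, without the block for rotenone and genotype, and 9 under another setting, and 0 of these were past the threshold in the fit as reported or in the alternative. With the block and 1 array or 1 replicate number left out, 40 of 60 differences had values on both sides of 0, and 0 of these had a value past the threshold. With each array centred on its median, Plk2 for replicate 2 against 1 was -0.019. With the mean of all probe sets of a gene, Ccng1 for rotenone in WT was 0.0093, Mdm2 for KO minus WT in rotenone was -0.064, and the interaction was -0.021 for Gadd45b, -0.035 for Mdm2 and -0.019 for Sesn1. Trp53inp1 was then -0.034 for replicate 2 against 1, -0.048 for rotenone in WT and -0.074 for the mean rotenone effect. The causes were not tested.

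The log2 differences that changed sign with 1 array left out, in the fit without the block for rotenone and genotype, had these ranges. For KO minus WT in rotenone the range was Btg2 -0.71 to 0.066, Cdkn1a -0.30 to 0.17, Gadd45a -1.09 to 0.48, Mdm2 -0.10 to 0.27, Plk2 -0.40 to 0.076, Sesn1 -0.28 to 0.083 and Trp53inp1 -0.37 to 0.14. For KO minus WT in vehicle the range was Btg2 -0.54 to 0.22, Ccng1 -0.25 to 0.051, Cdkn1a -0.21 to 0.13, Gadd45a -0.46 to 0.13, Gadd45b -0.23 to 0.055, Gadd45g -0.11 to 0.25, Mdm2 -0.19 to 0.10 and Trp53inp1 -0.36 to 0.37. For replicate 2 against replicate 1 the range was Ccng1 -0.11 to 0.028, Gadd45b -0.13 to 0.029, Plk2 -0.089 to 0.12 and Trp53inp1 -0.081 to 0.31. For replicate 3 against the mean of replicates 1 and 2 the range was Gadd45g -0.075 to 0.17. For rotenone against vehicle in KO the range was Btg2 -0.59 to 0.14, Ccng1 -0.23 to 0.091, Cdkn1a -0.29 to 0.067, Gadd45b -0.035 to 0.23, Gadd45g -0.0051 to 0.13, Sesn1 -0.14 to 0.087 and Trp53inp1 -0.43 to 0.30. For rotenone against vehicle in WT the range was Btg2 -0.47 to 0.33, Ccng1 -0.12 to 0.076, Cdkn1a -0.33 to 0.13, Gadd45b -0.077 to 0.19, Gadd45g -0.14 to 0.22, Mdm2 -0.015 to 0.17, Sesn1 -0.24 to 0.13 and Trp53inp1 -0.20 to 0.30. For rotenone against vehicle, mean of both genotypes the range was Btg2 -0.35 to 0.069, Ccng1 -0.13 to 0.035, Cdkn1a -0.23 to 0.0072, Gadd45b -0.0021 to 0.14, Gadd45g -0.034 to 0.15, Sesn1 -0.14 to 0.047 and Trp53inp1 -0.16 to 0.21. For rotenone effect in KO minus rotenone effect in WT the range was Btg2 -0.53 to 0.27, Ccng1 -0.21 to 0.11, Cdkn1a -0.25 to 0.21, Gadd45a -0.93 to 0.64, Gadd45b -0.12 to 0.17, Gadd45g -0.16 to 0.21, Mdm2 -0.071 to 0.31, Sesn1 -0.16 to 0.21 and Trp53inp1 -0.55 to 0.19.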
